A study of Arabidopsis thaliana with 8 samples.

Results

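The genes described here are 10 genes of chlorophyll synthesis, taken by name and locus from a table of 25198 genes measured in Arabidopsis thaliana seedlings. They are HEMA1 (AT1G58290), GUN4 (AT3G59400), GUN5 (AT5G13630), CHLI1 (AT4G18480), CHLD (AT1G08520, listed as ALB1), CHLM (AT4G25080), CRD1 (AT3G56940), PORA (AT5G54190), PORB (AT4G27440) and PORC (AT1G03630). They are defined by their place in the pathway, and were chosen with earlier results of these data known. Of these genes, 10 of 10 passed the filter on low counts. Messenger RNA of whole seedlings was sequenced at an age of 11 days, after growth on plates under 16 h light and 8 h dark at 22 °C. There were 4 genotypes with 2 libraries each, all in the Col background: the wild type Col, chr11-/-chr17-/- (labelled chr11/17), rlt1-/-rlt2-/- (rlt1/2) and fha2-/- (fha2). CHR11 and CHR17 are ATPases of the ISWI class, which move nucleosomes. RLT1 and RLT2 are DDT-domain partners of these ATPases, and FHA2 carries a forkhead-associated domain. The title of the study names a plant-specific ISWI subunit. The comparisons ask how the loss of each of these components changes the seedling transcriptome.

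Chlorophyll is made in the plastid from glutamate by a pathway that it shares with haem as far as protoporphyrin IX. At that branch point a magnesium chelatase inserts magnesium, and the product is then methylated, given a further ring by a cyclase and reduced to chlorophyllide. The reduction by protochlorophyllide oxidoreductase (POR) needs light, so its substrate accumulates in seedlings kept in the dark. Free intermediates of the pathway are phototoxic, and the genes of the pathway are known to be under tight control by light, the clock and the state of the plastid.

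The 250 bases before the annotated start of the PORA, PORB, PORC and CHLI1 genes are shown because these genes lie at the ends of the range of fold changes described further on. Against Col, PORA and PORB fell most and CHLI1 fell least in chr11/17, and PORC encodes the remaining form of the same enzyme. They were read from the RefSeq assembly TAIR10.1 and are written 5′ to 3′ on the strand of the gene, ending at the base before the start. PORA lies at chr5:21992815-21993064 on the minus strand, PORB at chr4:13725296-13725545 on the plus strand, PORC at chr1:907273-907522 on the plus strand and CHLI1 at chr4:10203470-10203719 on the minus strand. Capitals mark matches to any of 4 motifs, searched on both strands: the G-box CACGTG, the CCAATC element bound by GLK-type factors, the I-box GATAAG and the evening element core AATATCT.
PORA: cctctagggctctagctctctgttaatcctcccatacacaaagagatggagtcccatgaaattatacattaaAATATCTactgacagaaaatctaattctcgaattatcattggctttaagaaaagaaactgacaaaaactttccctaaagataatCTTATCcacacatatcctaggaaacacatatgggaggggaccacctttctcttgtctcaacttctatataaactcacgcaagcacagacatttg
PORB: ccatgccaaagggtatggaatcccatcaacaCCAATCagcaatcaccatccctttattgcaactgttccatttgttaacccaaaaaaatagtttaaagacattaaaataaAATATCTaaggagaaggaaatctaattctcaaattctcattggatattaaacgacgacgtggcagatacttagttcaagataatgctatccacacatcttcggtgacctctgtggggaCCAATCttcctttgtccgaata
PORC: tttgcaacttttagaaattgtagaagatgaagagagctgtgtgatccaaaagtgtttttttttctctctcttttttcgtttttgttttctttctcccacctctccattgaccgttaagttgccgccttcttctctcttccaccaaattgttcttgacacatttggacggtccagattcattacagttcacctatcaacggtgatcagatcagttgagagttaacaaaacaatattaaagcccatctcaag
CHLI1: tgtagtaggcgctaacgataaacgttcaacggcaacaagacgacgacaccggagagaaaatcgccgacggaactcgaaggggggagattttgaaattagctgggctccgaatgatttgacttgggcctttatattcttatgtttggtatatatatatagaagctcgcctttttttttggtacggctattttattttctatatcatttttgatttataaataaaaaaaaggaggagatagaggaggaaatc

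PORA and PORB shared the run aaatctaattctc, which begins 162 bases before the start of PORA and 123 bases before that of PORB. This run of 13 bases was the longest of the 45 pairs among the 10 promoters, and the other pairs shared 7 to 12 bases with a median of 9. The evening element core was found in PORA, PORB and GUN4, that is in 3 of the 10 promoters, against 10% of 27443 promoters of the same length. CCAATC stood in GUN4 and at 2 places in PORB, that is in 2 of 10 promoters against 10.2% of all. The I-box was found in PORA, 1 of 10 against 12.3% of all, and the G-box in CRD1, 1 of 10 against 6.49% of all. PORC and CHLI1 held none of these letters in this window. A match of letters describes the sequence and does not show that a factor binds there.

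The 8 libraries held from 20962202 to 22012119 counts each, so depth differed little between genotypes. Counts of the targeted genes were read first. RLT2 had 50 and 51 counts in rlt1/2 against 514 and 640 in Col, RLT1 had 362 and 388 against 463 and 669, and FHA2 had 69 and 23 in fha2 against 429 and 458. In the libraries labelled chr11/17, CHR11 had 1617 and 1640 counts against 861 and 869 in Col, and CHR17 had 499 and 538 against 313 and 422. The counts thus show no loss of either transcript. The log2 fold change was 0.61 for CHR11 (edgeR adjusted p = 2.84e-05) and 0.20 for CHR17 (edgeR adjusted p = 0.184). The sources used here give no position for the mutations in these genes. Counts over a gene therefore do not decide whether it is functional. Whether both libraries of a genotype were grown apart is not in the labels. Each p-value therefore reflects library-to-library spread that could be technical only. The 20 most abundant genes took 21.4 and 22.5% of the counts in Col and 7.73 and 8.49% in chr11/17.

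All 10 genes fell below Col in rlt1/2 and in the libraries labelled chr11/17, and 3 of the 10, CHLD, CRD1 and PORB, fell in fha2. Mean levels were given as CPM, that is counts relative to the library size scaled with TMM factors. They followed 1 order for 10 of 10 genes, with chr11/17 lowest, then rlt1/2, then fha2, then Col. The share of all genes with this order was not counted. For HEMA1, PORA and PORC the libraries of fha2 and Col overlapped. Under total-count scaling fha2 lay above Col for HEMA1, GUN5, PORA and PORC, with log2 fold changes of 0.24, 0.13, 0.18 and 0.25. A gene was called at a Benjamini-Hochberg adjusted p under 0.05 in the edgeR quasi-likelihood test over 20866 genes. Against Col, 34.4% of all genes tested were called lower in chr11/17, 18.7% in rlt1/2 and 8.76% in fha2. Under total-count scaling these shares of all genes were 25.1%, 8.86% and 3.19%. The median log2 fold change of the 10 genes was -1.85 in chr11/17, -0.80 in rlt1/2 and -0.30 in fha2, while that of all genes tested was -0.01, 0.01 and 0.01. The lowest 10% of all genes began at a log2 fold change of -1.55 in chr11/17, -0.67 in rlt1/2 and -0.49 in fha2. A fall of at least 2-fold was called for 9 of the 10 genes in chr11/17 and for 3 of the 10 in rlt1/2, against 17.9% and 4.1% of all genes. The 3 comparisons share the same Col libraries, so they are not independent of each other. In whole seedlings, fewer green cells and less RNA per cell cannot be told apart.

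**Figure D1:**
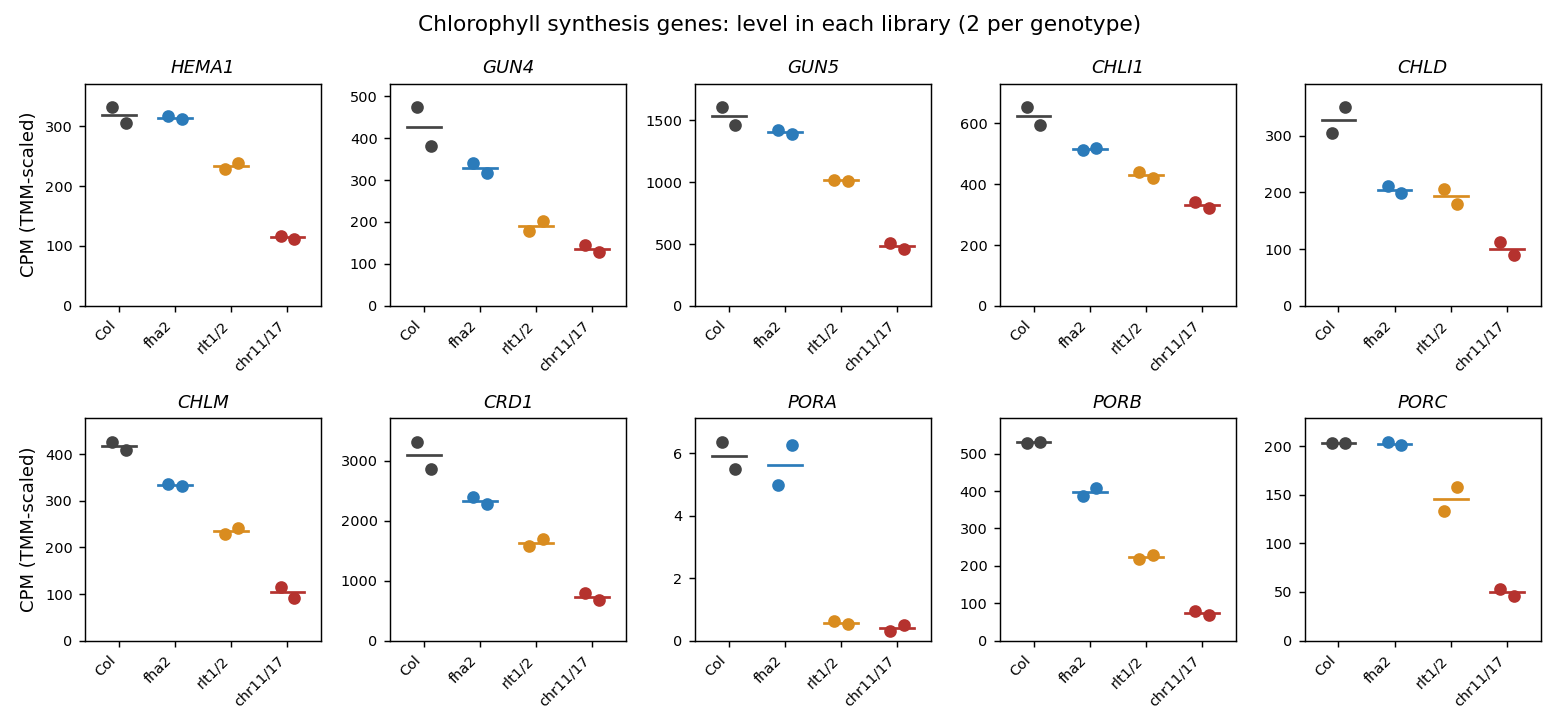
Level of each of the 10 genes in each library, in TMM-scaled CPM on linear axes from 0, with 2 points per genotype and a line at their mean. For each gene the lines step down from Col through fha2 and rlt1/2 to chr11/17, but the points of Col and fha2 overlap for HEMA1, PORA and PORC. For PORA the points of rlt1/2 and chr11/17 lie between 0.318 and 0.613 CPM while those of Col and fha2 lie between 4.99 and 6.36.

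HEMA1 encodes glutamyl-tRNA reductase, the entry enzyme and a known control point of the whole pathway. It stood at 331 and 305 CPM in Col, 317 and 312 in fha2, 228 and 239 in rlt1/2, and 117 and 112 in chr11/17. The libraries of Col and fha2 overlapped, and those of rlt1/2 and chr11/17 each lay apart below them. Against Col, HEMA1 fell to 35.9% in chr11/17, with a log2 fold change of -1.48 ± 0.0898 (SE, adjusted p = 2.02e-08, edgeR). In rlt1/2 it fell to 73.4%, with a log2 fold change of -0.45 ± 0.0876 (adjusted p = 0.00166, edgeR), the smallest change of the 10 genes in that genotype. In fha2 the log2 fold change was -0.02 ± 0.0873 (edgeR adjusted p = 0.915). The call in rlt1/2 did not hold when libraries were scaled by total counts, where the log2 fold change was -0.16 (edgeR adjusted p = 0.126).

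The magnesium chelatase has 3 kinds of subunit. GUN5 is the large subunit that binds the porphyrin, CHLI1 is the main form of the small ATPase subunit, and CHLD is the subunit that bridges them. GUN4 binds the substrate and product and stimulates the enzyme. GUN5 stood at 1605 and 1459.7 CPM in Col, 1425 and 1389.9 in fha2, 1017 and 1012 in rlt1/2, and 509 and 459.6 in chr11/17. Its log2 fold change against Col was -1.66 ± 0.104 in chr11/17 (edgeR adjusted p = 2.59e-08) and -0.59 ± 0.102 in rlt1/2 (edgeR adjusted p = 6.57e-04). In fha2 it was -0.12 ± 0.101 (edgeR adjusted p = 0.441), and in TMM-scaled CPM both fha2 libraries lay below both Col libraries. Under total counts the fha2 value turned to 0.13 (edgeR adjusted p = 0.235).

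CHLI1 was the gene whose level moved least in chr11/17. Its level was 652 and 593 CPM in Col, 513 and 520.2 in fha2, 440.9 and 419 in rlt1/2, and 343 and 323 in chr11/17. No library of any genotype overlapped those of another. In chr11/17 it was at 53.5% of Col, with a log2 fold change of -0.90 ± 0.0942 (adjusted p = 2.55e-06, edgeR), the only one of the 10 genes that did not reach a 2-fold fall. In rlt1/2 it fell by 0.53 ± 0.0936 on the log2 scale (edgeR adjusted p = 7.78e-04), and in fha2 the log2 fold change was -0.27 ± 0.0934 (edgeR adjusted p = 0.0703).

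CHLD was the gene with the largest fall in fha2. It stood at 304 and 350.0 CPM in Col, 211 and 199 in fha2, 207 and 179 in rlt1/2, and 112 and 90.4 in chr11/17. The libraries of fha2 and rlt1/2 overlapped, and the difference between these mutants was 0.08 ± 0.118 on the log2 scale (edgeR adjusted p = 0.605). Against Col the log2 fold change was -0.68 ± 0.119 in fha2 (edgeR adjusted p = 0.00409). It was -0.76 ± 0.119 in rlt1/2 (edgeR adjusted p = 3.49e-04) and -1.69 ± 0.122 in chr11/17 (edgeR adjusted p = 8.97e-08). CHLD overlaps AT1G08530, which had 293 to 1032 counts per library. With the counts of that gene added, the log2 fold change was -0.63 in fha2, -0.66 in rlt1/2 and -1.26 in chr11/17, and each remained called. Without the second fha2 library the call in fha2 was lost, with an edgeR adjusted p of 0.0637.

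GUN4 had the widest spread between the Col libraries relative to its mean, at 473 and 380.3 CPM. It stood at 339.5 and 318 CPM in fha2, 178 and 203 in rlt1/2, and 145 and 127 in chr11/17. In rlt1/2 it was at 44.7% of Col, with a log2 fold change of -1.16 ± 0.120 (adjusted p = 1.63e-05, edgeR), and in chr11/17 at 31.9%, with a log2 fold change of -1.65 ± 0.122 (adjusted p = 1.15e-07, edgeR). Its value in fha2, -0.38 ± 0.119, lay at the edge of the threshold (edgeR adjusted p = 0.0510). GUN4 was thus one of the 3 genes that fell at least 2-fold in rlt1/2, with PORA and PORB.

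CHLM methylates magnesium protoporphyrin, and CRD1, also called CHL27, is a subunit of the cyclase that closes the additional ring. CHLM stood at 426 and 410.2 CPM in Col, 336 and 331 in fha2, 229 and 241 in rlt1/2, and 115 and 92.2 in chr11/17. CRD1 was the most abundant of the 10 transcripts, at 3305 and 2865 CPM in Col, 2385 and 2273 in fha2, 1570.0 and 1697 in rlt1/2, and 785 and 677 in chr11/17. For both genes the 4 genotypes were separate, with no overlap of libraries. Against Col in chr11/17, CHLM fell to 24.8%, with a log2 fold change of -2.01 ± 0.110 (adjusted p = 8.49e-09, edgeR), and CRD1 to 23.7%, with a log2 fold change of -2.08 ± 0.122 (adjusted p = 1.53e-08, edgeR). In rlt1/2 the log2 fold changes were -0.83 ± 0.106 for CHLM (edgeR adjusted p = 7.92e-05) and -0.92 ± 0.118 for CRD1 (edgeR adjusted p = 8.53e-05). In fha2, CRD1 fell by 0.41 ± 0.118 on the log2 scale (edgeR adjusted p = 0.0370), and CHLM, at -0.32 ± 0.106, did not pass (edgeR adjusted p = 0.0575). Both lay near the threshold. The CRD1 call was lost under total counts (edgeR adjusted p = 0.225), and CHLM was called lower by DESeq2 (adjusted p = 0.0245). Over the 8 libraries the pattern of CHLM differed from the mean pattern of the 10 genes by a root mean square of 0.107 on the log2 scale, and that of CRD1 by 0.101, the nearest of the 10.

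The POR enzymes are encoded by 3 genes. PORA is known for its expression in dark-grown seedlings and its rapid loss in light, PORB is expressed both in dark and in light, and PORC is known as a light-grown form. PORB stood at 529 and 531 CPM in Col, 388 and 409 in fha2, 219 and 228 in rlt1/2, and 78.7 and 67.4 in chr11/17. It fell to 13.8% of Col in chr11/17, with a log2 fold change of -2.86 ± 0.104 (adjusted p = 3.42e-10, edgeR), to 42.2% in rlt1/2, with a log2 fold change of -1.24 ± 0.0974 (adjusted p = 2.03e-06, edgeR), and to 75.1% in fha2, with a log2 fold change of -0.41 ± 0.0959 (adjusted p = 0.0149, edgeR). PORB overlaps the gene AT4G27450, which had 363 to 4026 counts per library. With the counts of that gene added, the log2 fold change was -2.94 in chr11/17, -1.001 in rlt1/2 and -0.28 in fha2, and the call in fha2 was lost (edgeR adjusted p = 0.0719).

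PORC stood at 203 and 204 CPM in Col, 204 and 201 in fha2, 133 and 157 in rlt1/2, and 53.4 and 46.3 in chr11/17. The Col and fha2 libraries overlapped, and the fha2 difference was 0.00 on the log2 scale with an SE of 0.102 (edgeR adjusted p = 0.983). In chr11/17 PORC fell by 2.03 ± 0.108 on the log2 scale (edgeR adjusted p = 6.49e-09), and in rlt1/2 by 0.49 ± 0.102 (edgeR adjusted p = 0.00265). The rlt1/2 value was -0.20 under total counts (edgeR adjusted p = 0.110).

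PORA was a rare transcript in these light-grown seedlings. It had 116 and 103 counts in Col, 113 and 143 in fha2, 14 and 12 in rlt1/2, and 7 and 12 in chr11/17. Scaled, these counts were 6.36 and 5.49 CPM in Col, 4.99 and 6.27 in fha2, 0.613 and 0.520 in rlt1/2, and 0.318 and 0.510 in chr11/17. PORA had the largest fall of the 10 genes in both genotypes, to 9.57% of Col in rlt1/2 and 6.99% in chr11/17. The log2 fold change was -3.37 ± 0.280 in rlt1/2 (edgeR adjusted p = 3.15e-06) and -3.81 ± 0.296 in chr11/17 (edgeR adjusted p = 1.75e-07). These mutants were not told apart for PORA, with a difference of 0.44 ± 0.415 on the log2 scale (edgeR adjusted p = 0.383). In fha2 the log2 fold change was -0.07 ± 0.206 (edgeR adjusted p = 0.846). With so few counts the sampling error of PORA is the largest of the 10 genes.

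**Figure D2:**
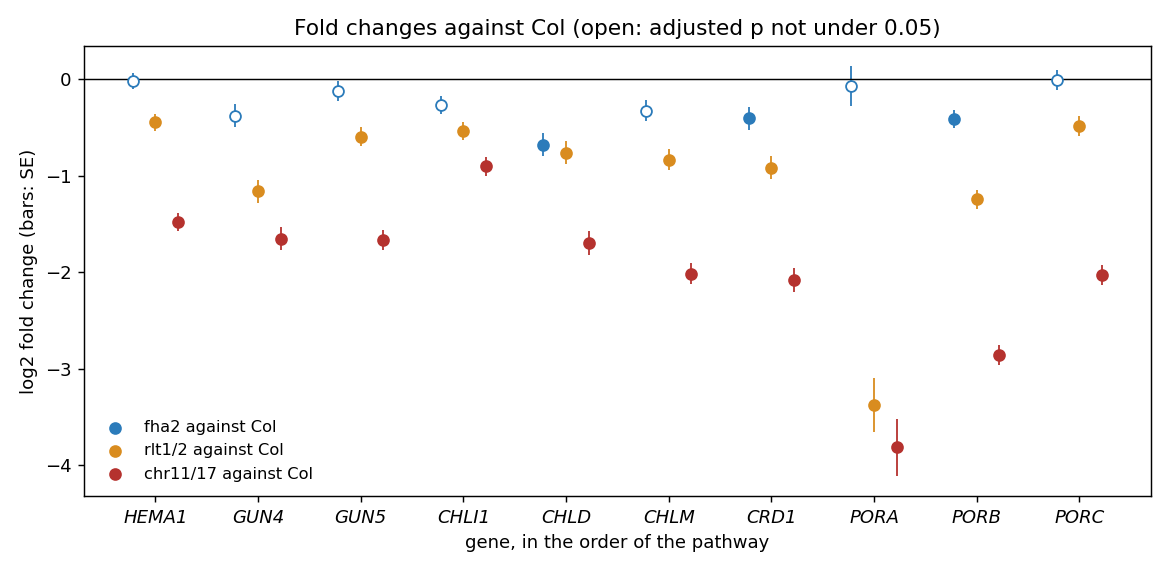
Log2 fold change of each of the 10 genes against Col, with bars of 1 SE, for fha2, rlt1/2 and chr11/17. Filled points passed an edgeR adjusted p of 0.05, as 10, 10 and 3 of the 10 genes did in chr11/17, rlt1/2 and fha2, and the points of rlt1/2 lie between those of fha2 and chr11/17 for each gene.

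The 7 genes that did not pass in fha2 were HEMA1, GUN4, GUN5, CHLI1, CHLM, PORA and PORC. For 7 of the 10 genes both fha2 libraries lay below both Col libraries, a pattern held by 30.1% of all genes tested. At an unadjusted p under 0.05, 6 of the 10 genes were lower, against 16.4% of all genes, and DESeq2 called 6 lower, against 8.07%. In the authors' deposited table, 6 of the 10 genes had a q-value under 0.05 in fha2, among them GUN4 at 0.0154, CHLI1 at 0.0443 and CHLM at 0.00651. The share of all genes under that q-value in the authors' table was not counted. The count of 3 depends on single libraries. It was 1 without the first Col library, where 4.87% of all genes were called lower, and 1 without the first fha2 library, where 3.47% were. It was 0 without the second fha2 library, where 1.28% of all genes were called lower. Without either of the libraries labelled chr11/17 it was 6, against 10.8 and 10.9% of all genes, and in a fit of the Col and fha2 libraries alone it was 5, against 11.2%. Under total counts 1 gene was lower, against 3.19% of all genes, and HEMA1 passed as higher with a log2 fold change of 0.24 (adjusted p = 0.0418, edgeR), against 29% of all genes called higher.

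Set against each other, the mutants also differed. In fha2 all 10 genes were higher than in chr11/17, where 35.6% of all genes were called higher, with log2 differences from 0.63 for CHLI1 to 3.74 for PORA and a median of 1.61. Against rlt1/2, 9 of the 10 genes were higher in fha2, where 20.2% of all genes were, with a median of 0.49 over the 10 genes. PORA differed most there, by 3.30 ± 0.278 on the log2 scale (edgeR adjusted p = 5.47e-06), followed by PORB at 0.83 ± 0.0967 (edgeR adjusted p = 5.31e-05). CHLI1 passed narrowly at 0.26 ± 0.0934 (edgeR adjusted p = 0.0387). In rlt1/2, 9 of the 10 genes were higher than in chr11/17, where 30.1% of all genes were, with a median of 1.05. The largest of these differences were 1.62 ± 0.0999 for PORB (edgeR adjusted p = 7.01e-08) and 1.54 ± 0.106 for PORC (edgeR adjusted p = 1.77e-07), and the smallest that passed was 0.37 ± 0.0937 for CHLI1 (edgeR adjusted p = 0.00454). The median over all genes tested was 0.02, 0.00 and 0.03 in these 3 comparisons.

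Levels of different genes can be compared only per length, for which the FPKM values deposited by the authors were used. These are not TMM-scaled, so that HEMA1, for example, had a mean FPKM of 139 in fha2 and 118 in Col although its CPM did not differ. In Col, CRD1 came first at 1808 ± 71.5 FPKM (SD, n = 2) and CHLI1 second at 333 ± 7.71. GUN4 at 284 ± 31.3, CHLM at 280 ± 5.19 and PORB at 278 ± 12.9 followed, with libraries of neighbours overlapping from GUN4 down to GUN5, which was at 274 ± 6.49. PORC at 126 ± 6.34 came next, then HEMA1 at 118 ± 1.69, whose libraries overlapped those of CHLD at 106 ± 15.2. PORA came last at 3.24 ± 0.191. CRD1 remained first, CHLI1 second and PORA last in the other 3 genotypes. PORB had place 5 in Col and place 6 in fha2 and rlt1/2, but in each of these its libraries overlapped those of a neighbour in the order. In chr11/17 it had place 7 without such overlap, at 46.5 ± 3.10 FPKM, below HEMA1 at 51.4 ± 0.643. The transcripts of the 10 genes made up 0.659 and 0.636% of all counts in Col, 0.630 and 0.619% in fha2, 0.446 and 0.463% in rlt1/2, and 0.231 and 0.217% in chr11/17.

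PORB gave most of the POR transcript in each genotype, but its share differed. PORB overlaps AT4G27450, with 363 to 4026 counts per library, and PORC overlaps AT1G03620, with 36 to 73. The shares may thus depend on how reads were assigned. In FPKM it held 68.3 ± 0.0287% of the summed POR level in Col, 62.4 ± 1.03% in fha2, 56.7 ± 2.098% in rlt1/2 and 55.2 ± 0.219% in chr11/17 (SD, n = 2). The share of PORC was 30.9 ± 0.113%, 36.6 ± 1.16%, 43.1 ± 2.12% and 44.5 ± 0.0724% in the same order. PORA held 0.796% in Col, 0.918% in fha2, 0.151% in rlt1/2 and 0.331% in chr11/17. The PORB shares of rlt1/2 and chr11/17 overlapped, and those of Col, fha2 and the other 2 genotypes did not. From counts in place of FPKM the PORB share was 71.7% in Col, 65.7% in fha2, 60.6% in rlt1/2 and 59.2% in chr11/17.

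**Figure D3:**
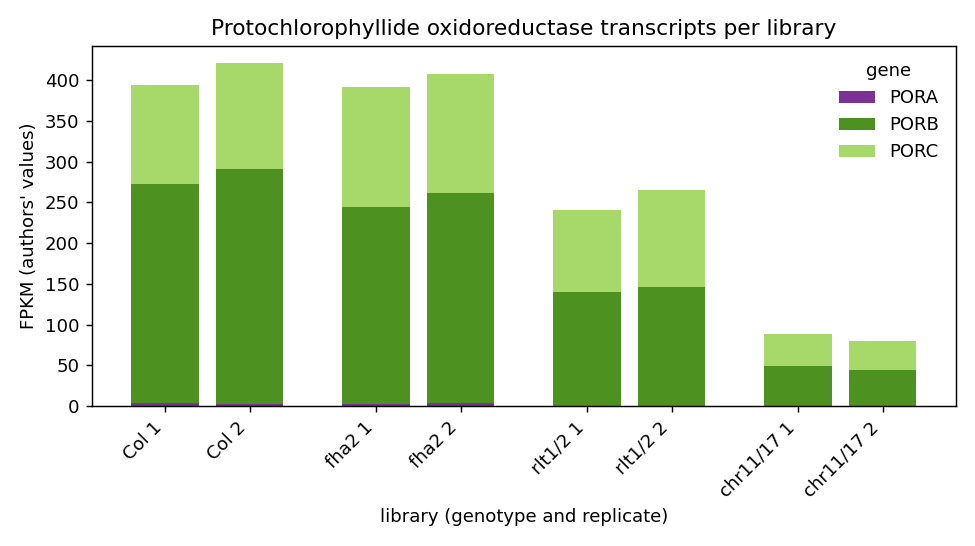
FPKM of PORA, PORB and PORC, as deposited by the authors, stacked for each of the 8 libraries on a linear axis from 0. The summed level lies at 394 and 421 FPKM in Col and at 87.9 and 80.5 in chr11/17, PORA is barely visible in any bar, and PORC takes a larger part of the bar in rlt1/2 and chr11/17.

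Other genes of the pathway were followed in 5 lists. Of all genes tested, 34.4% were called lower in chr11/17, 18.7% in rlt1/2 and 8.76% in fha2, and 34.8% were called higher in chr11/17. Of 14 listed genes for other steps to protoporphyrin 13 were tested, and in chr11/17 11 of them fell and 1 rose, with a median log2 fold change of -0.79. In rlt1/2, 7 of the 13 fell and none rose, with a median of -0.36. In fha2 1 of the 13, PPOX2, fell by 0.45 on the log2 scale (named after its values were seen). PPOX2 overlaps AT5G14210, which had 119 to 706 counts per library. HEME1 and HEME2 encode uroporphyrinogen decarboxylases. HEME1 stood at 126 and 119 CPM in Col, 125 and 119 in fha2, 78.1 and 77.6 in rlt1/2, and 23.5 and 30.7 in chr11/17. Its log2 fold change in chr11/17 was -2.18 (edgeR adjusted p = 6.56e-09). HEME1 had 517 and 721 counts there and overlaps AT3G14920, which had 405 to 751 counts per library. On the log2 scale HEME2 fell by 1.86 in chr11/17, and HEMF2, a coproporphyrinogen oxidase gene, fell by 1.51. The gene that rose was HEMA3, a rare relative of HEMA1, with 6 and 6 counts in Col and 30 and 29 in chr11/17, a log2 fold change of 1.98 (adjusted p = 0.00133, edgeR). HEMA2, chosen after its values were seen because it encodes the same enzyme as HEMA1, did not pass in any mutant and had log2 fold changes of 0.07 in chr11/17, -0.03 in rlt1/2 and 0.03 in fha2.

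The other genes of the chlorophyll branch resembled the 10 genes in direction in chr11/17 and rlt1/2. In chr11/17 6 of 6 fell, with a median log2 fold change of -1.90, against 34.4% of all genes called lower. In rlt1/2 5 of 6 fell, with a median of -0.63, against 18.7% of all genes. In fha2 1 of 6 fell, against 8.76% of all genes. DVR reduces the 8-vinyl group of chlorophyll precursors. DVR stood at 79.0 and 72.8 CPM in Col, 74.6 and 78.0 in fha2, 46.0 and 46.8 in rlt1/2, and 13.1 and 15.6 in chr11/17, where its log2 fold change was -2.40 (edgeR adjusted p = 1.25e-09). On the log2 scale CHLP, which makes the phytyl tail, fell by 2.07 in chr11/17. CHLI2, the minor form of the chelatase subunit CHLI, fell by 1.94, and CAO, which makes chlorophyll b, fell by 1.86. CHLI2 had 274 and 304 counts in chr11/17 and overlaps NUDT11, which had 225 to 514 counts per library. The gene that fell in fha2 was LCAA, another factor of the cyclase that CRD1 belongs to, chosen after its values were seen. LCAA stood at 253 and 246 CPM in Col, 172 and 175 in fha2, 222 and 226 in rlt1/2, and 176 and 172 in chr11/17, so that fha2 and chr11/17 overlapped and rlt1/2 lay between them and Col. LCAA overlaps NdhN, which had 783 to 2678 counts per library. Its log2 fold change was -0.52 ± 0.0828 in both fha2 (edgeR adjusted p = 0.00266) and chr11/17 (edgeR adjusted p = 1.10e-04).

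FLU and GBP act on the entry enzyme, FLU as its repressor in the dark and GBP as a protein that binds it. In chr11/17 FLU fell by 0.98 and GBP fell by 0.53 on the log2 scale. In rlt1/2 FLU fell by 0.65, and neither passed in fha2. FLU overlaps a gene with 2485 to 4227 counts per library.

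Genes of the haem and bilin branch moved in both directions. In chr11/17, 3 of its 7 genes rose and 3 fell, near the 34.8% of all genes called higher and 34.4% called lower. In rlt1/2 2 rose and 3 fell, where 18.7% of all genes were called in each direction. In fha2 1 of the 7, HY2, fell, against 8.76% of all genes. The largest rise was that of HO4, a haem oxygenase gene. HO4 had 7 and 9 counts in Col, 6 and 5 in fha2, 192 and 192 in rlt1/2, and 80 and 63 in chr11/17. Its log2 fold change was 4.26 ± 0.282 in rlt1/2 (edgeR adjusted p = 5.34e-07) and 2.85 ± 0.312 in chr11/17 (edgeR adjusted p = 4.04e-06). HO4 is the gene next to HEMA1 on chromosome 1, on the same strand, with 1355 bases between them. HEMA1 lies at 21623700 to 21626402 and HO4 at 21627758 to 21630118 in TAIR10.1. Across these neighbours rlt1/2 thus had the highest HO4 level and a HEMA1 level between those of Col and chr11/17. HO3, a close relative of HO4, rose in chr11/17 with a log2 fold change of 2.15 (adjusted p = 7.67e-05, edgeR). Its counts went from 29 and 15 in Col to 115 and 127, and were 16 and 10 in rlt1/2. HO3 overlaps AT1G69730, which had 30 to 209 counts per library. HY2, which makes the phytochrome chromophore, fell by 1.14 in chr11/17. Of the ferrochelatases, FC1 rose by 0.99 in chr11/17, while FC2, named after its values were seen, fell by 0.87 on the log2 scale.

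Genes of chlorophyll breakdown moved the other way in chr11/17. There 8 of 10 rose and none fell, with a median log2 fold change of 1.21, against 34.8% of all genes called higher. In rlt1/2 none rose and 1, SGR1, fell, with a median of 0.10, against 18.7% of all genes called in each direction. In fha2 2 of 10, PPH and PAO, rose and none fell, with a median of 0.08. Of all genes 6.33% were called higher there. At an unadjusted p under 0.05 in edgeR, PAO and CLH1 were also higher in rlt1/2, against 23.5% of all genes. HCAR was lower in fha2, against 16.4% of all genes. SGR2, a relative of the Mg-dechelatase SGR1, had 36 and 29 counts in Col against 488 and 605 in chr11/17, with 49 and 40 in rlt1/2 and 26 and 51 in fha2. The log2 fold change of SGR2 in chr11/17 was 3.76 ± 0.229 (edgeR adjusted p = 2.01e-08). The chlorophyllase genes CLH2 and CLH1 rose there by 3.35 and 2.08 on the log2 scale. CLH2 overlaps AT5G43870, which had 266 to 420 counts per library. PAO, the oxygenase that opens the ring, stood at 66.3 and 66.4 CPM in Col, 78.1 and 87.3 in fha2, 74.95 and 78.4 in rlt1/2, and 169 and 167 in chr11/17, a log2 fold change of 1.34 in chr11/17 (adjusted p = 3.82e-08, edgeR) and 0.32 in fha2 (edgeR adjusted p = 0.0302).

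**Figure D4:**
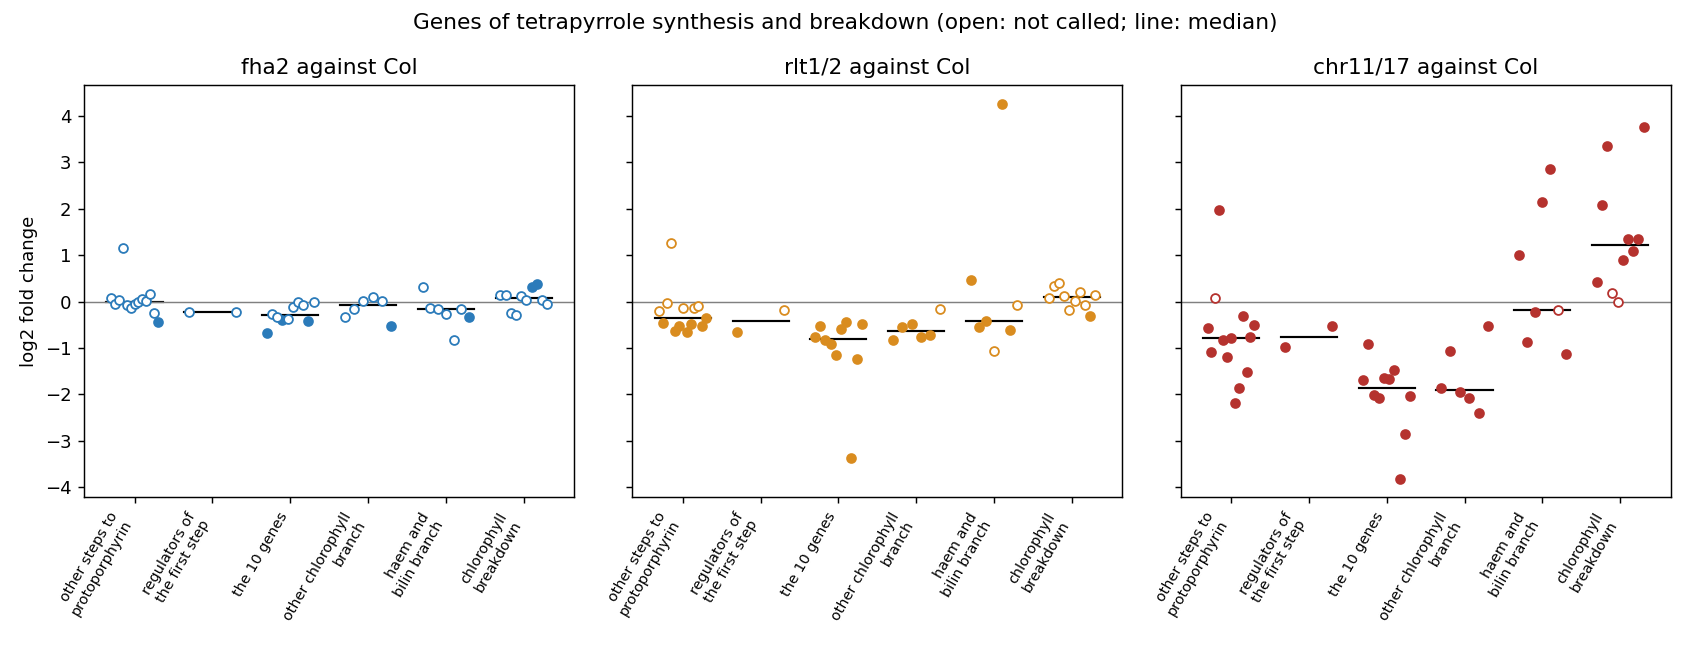
Log2 fold change against Col of the 10 genes and of 5 lists of related genes, in 3 panels for fha2, rlt1/2 and chr11/17, with a line at each median and filled points for an edgeR adjusted p under 0.05. In chr11/17 the medians lie at -1.85 for the 10 genes, -1.90 for the other chlorophyll branch and 1.21 for breakdown, and the highest point in rlt1/2 is HO4 at 4.26.

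Counts for these lists depended on the scaling. Under total counts the median of all genes moved up by 0.27 in chr11/17, 0.29 in rlt1/2 and 0.26 in fha2 on the log2 scale. Of all genes 44.3% were then called higher and 25.1% lower in chr11/17, 38.9% higher and 8.86% lower in rlt1/2, and 29% higher and 3.19% lower in fha2. The other steps to protoporphyrin then had 2 genes higher and 9 lower in chr11/17, 1 higher and 4 lower in rlt1/2, and 4 higher and 0 lower in fha2. Breakdown genes had 10 of 10 higher in chr11/17, 4 in rlt1/2, near the share of all genes, and 5 in fha2, and the median of the haem and bilin branch turned to 0.09 in chr11/17. The 10 chlorophyll genes were called lower in 10 of 10 cases in chr11/17 and 8 of 10 in rlt1/2 under that scaling.

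Against Col, green tissue markers that were called moved in the direction of the 10 genes. Seed and floral markers that were called moved the other way, and root markers moved in both directions. The summed level of 10 green tissue markers (antenna, photosystem, plastocyanin and Rubisco genes) was 137535 and 121803 CPM in Col, 85906 and 81163 in fha2, 74383 and 73496 in rlt1/2, and 31769 and 27044 in chr11/17. Of these markers 10 of 10 fell in chr11/17 and in rlt1/2, and 9 of 10 in fha2, where 34.4%, 18.7% and 8.76% of all genes did. Over 10 root markers the sum was 701 to 739 CPM in Col, 879.6 to 887 in fha2, 1508 to 1581 in rlt1/2 and 1463 to 1511 in chr11/17, mostly from PYK10. Of these 2 rose and 6 fell in chr11/17, 4 rose and 1 fell in rlt1/2, and 1 rose in fha2. The shares of all genes called higher were 34.8% in chr11/17, 18.7% in rlt1/2 and 6.33% in fha2. Over 8 seed markers the sum was 0.329 to 0.960 CPM in Col and 0.702 to 1.28 in fha2, with 2 to 5 of the 8 at 0, and it was 95.3 to 113 in rlt1/2 and 199.6 to 461 in chr11/17, with none at 0. Over 7 floral markers it was 5.04 to 7.62 CPM in Col, 10.6 to 20.8 in fha2, 155 to 159 in rlt1/2 and 269 to 340.2 in chr11/17, with at most 1 of the 7 at 0 in any library. Of the tested seed markers 7 of 7 rose in chr11/17 and 6 of 7 in rlt1/2, and of the tested floral markers 5 of 5 rose in chr11/17, 3 of 5 in rlt1/2 and 1 of 5 in fha2. The part of these differences in tissue markers in the fall of the 10 genes was not tested.

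Likeness of pattern was measured as the root mean square difference between a gene's centred log2 CPM over the 8 libraries and the mean profile of the 10 genes. The 5 other genes most like that profile were AT1G52510 at 0.0539, GPX1, a glutathione peroxidase gene, at 0.0619, ICR1 at 0.0670, BXL2, a beta-xylosidase gene, at 0.0722, and SQE2, a squalene epoxidase gene, at 0.0783. GPX1 stood at 380.0 and 321 CPM in Col, 304 and 281 in fha2, 183 and 182 in rlt1/2, and 88.8 and 82.8 in chr11/17. AT1G52510 and ICR1 each overlap another gene. Among the 10 genes CRD1 and CHLM lay nearest the mean profile and CHLI1 at 0.451 and PORA at 1.03 farthest from it. Each of the 10 is itself part of that mean. Ranked by likeness among all genes tested, CRD1 came at place 12, CHLM at 16, CHLI1 at 2810 and PORA at 14644.

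For 7 of the 10 genes another gene overlaps the locus (GUN4, CHLI1, CHLD, CHLM, CRD1, PORB and PORC), and without a stated strand of the counting such reads cannot be told apart. With the counts of the overlapping gene added, the fall remained called for 10 of 10 genes in chr11/17 and in rlt1/2. Of all genes, 34.4% and 18.7% were then called lower. In the authors' deposited table the log2 fold changes of the 10 genes ranged from -3.83 for PORA to -0.90 for CHLI1 in chr11/17. In rlt1/2 they ranged from -3.39 for PORA to -0.45 for HEMA1. The q-values were under 0.05 for 10 of 10 in both, and the share of all genes in that table was not counted.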

How the data were processed

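Groups came from the labels alone. The authors deposited expected counts per gene and library (estimated read counts), and FPKM, the unit being recognised from the values. The authors also deposited log2 fold changes and q-values of their own comparisons, as the file headers say. The submitters' processing notes list Bowtie2, RSEM, DESeq2 and the build TAIR10, without saying what each was used for.

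Counts were rounded, filtered with filterByExpr by genotype (20866 of 25198 genes kept), scaled by TMM and fitted in 1 edgeR 4.0.16 quasi-likelihood model (R 4.3.3) of all 8 libraries with genotype as the only term. An adjusted p under 0.05 over all genes made a call, and SE is the fold change over the root of F. The script was tested on simulated data. FPKM served only to compare genes with each other. Alternatives were RLE and total-count scaling, no filter, a minimum of 1 CPM in any 2 libraries, limma-voom 3.58.1, DESeq2 1.42.0, fits of the compared genotypes alone, a replicate block, each library left out, a fold of at least 2 and addition of overlapping genes. Same-numbered libraries of chr11/17 and Col deviated with r = -0.11, so a crossed block was added after seeing the data. Intervals and floors were not needed, as none of the 10 genes was at 0.

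Gene IDs matched the RefSeq annotation of TAIR10.1, a later release of the build in the notes, and promoters and positions are in its coordinates. The text names the 10 genes, up to 4 called genes per list with the largest fold change against Col, and the 5 genes most like the mean profile (log2 CPM with a prior count of 2). The members and the lists were chosen with earlier results of these data known.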

Additional observations from a re-analysis of the deposited data

How the results depend on the processing

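The counts of called genes in chr11/17 and rlt1/2 against Col, fha2 against chr11/17 and rlt1/2 against chr11/17 stayed within 1.5 times the reported counts under the alternatives run, except that a fold of at least 2 left 3 genes in rlt1/2 against Col. That fold left 1 gene in fha2 against rlt1/2 and 0 in fha2 against Col. In fha2 against Col, where 3 genes were called, DESeq2 called 6, the fit of these 2 genotypes alone 5, and leaving out 1 library gave 0 to 6, as given per library in the report. CRD1 and PORB were the calls lost most often there. Fold changes near 0 turned sign in fha2 against Col: under total counts HEMA1 was at 0.24, GUN5 at 0.13, PORA at 0.18 and PORC at 0.25 on the log2 scale. With no filter PORC was at 0.000606. With 1 library left out in turn, the log2 fold change in fha2 against Col ranged from -0.0756 to 0.0472 for HEMA1, from -0.246 to 0.0748 for PORA and from -0.0220 to 0.00649 for PORC, and that of CHLD in fha2 against rlt1/2 from -0.0151 to 0.189. These causes were not tested. Over all genes the calls in fha2 against Col numbered 3148, and 444 to 1736 without 1 library of either genotype. A setting that leaves 1 library in a genotype assumes that it varies like the others. Of 1062 values of single genes and alternatives, 1012 kept their direction and side of the threshold. Replicate numbers mark no shared batch in the labels, and fitting the replicate number as a block left 10, 10, 3, 10, 9 and 9 called genes in the 6 comparisons, the crossed block 10, 10, 2, 10, 8 and 9.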

Other observations

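Ratios between related genes, taken within each library from the authors' FPKM, were not even across genotypes. The main and the minor form of the chelatase ATPase subunit, CHLI1 over CHLI2, stood at 11.6 and 12.9 in Col, 9.82 and 10.11 in fha2, 13.1 and 10.4 in rlt1/2, and 26.3 and 23.8 in chr11/17, so that the chr11/17 libraries lay apart above the others. CHLI1 over GUN5, the small over the large subunit, stood at 1.22 and 1.22 in Col, 1.07 and 1.11 in fha2, 1.301 and 1.24 in rlt1/2, and 2.02 and 2.11 in chr11/17. GUN5 over CHLD was 2.92 and 2.30 in Col, 3.76 and 3.91 in fha2, 2.72 and 3.12 in rlt1/2, and 2.51 and 2.81 in chr11/17. GUN4 over GUN5 was 1.10 and 0.976 in Col, 0.886 and 0.847 in fha2, 0.656 and 0.753 in rlt1/2, and 1.07 and 1.04 in chr11/17. For the entry enzyme, HEMA1 over HEMA2 stood at 18.8 and 19.5 in Col, 17.8 and 19.2 in fha2, 14.3 and 14.5 in rlt1/2, and 7.35 and 5.91 in chr11/17. These ratios were chosen after the values were seen and carry no test. CHLI1, CHLI2, CHLD and GUN4 each overlap another gene, so their ratios may also depend on how reads were assigned.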
